A study of Mus musculus with 12 samples.

Results

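The genes described here are Acaca and the enzymes and regulators that make fatty acids with it. They were chosen by name: Acaca, Acly, Fasn, Scd1, Scd2, Elovl6, Elovl1, Srebf1 and Mid1ip1, 9 of the 54532 genes listed. The choice started from the high level of Acaca in the cortical libraries, so the cortical-to-total values of all 9 members are a description. For them no p is given, and counts past the adjusted p threshold of 0.05 only place the members beside all genes; nothing is read from them. All 9 genes passed the filter on low counts, with 145 to 12209 counts per library. In mm10 coordinates Acaca (ENSMUSG00000020532) spans chr11:84129672-84401651, Acly chr11:100476353-100528000, Fasn chr11:120805846-120824547 and Srebf1 chr11:60199089-60222581. Scd1 and Scd2 are neighbours at chr19:44394451-44407709 and chr19:44293676-44306864. Elovl6 spans chr3:129532355-129638495, Elovl1 chr4:118428093-118432953 and Mid1ip1 chrX:10715013-10719690, and all 9 are protein-coding.

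The libraries came from mouse keratinocytes (epidermal cells) in culture, of a wild-type genotype carrying a doxycycline-induced fusion called DP(1-584)-BirA. This joins residues 1 to 584 of desmoplakin, which anchors the desmosome junctions between cells, to a biotin ligase. By the labels, all cells, unwounded controls included, received 1.2 micromolar calcium, 2 µg/mL doxycycline and a 16 h biotin pulse. The calcium unit is the one in the labels and could not be checked here. The translating part of a sucrose gradient was passed over neutravidin, a biotin-binding resin. The captured RNA is the cortical fraction, and what flowed past is called the total fraction. Wounded and unwounded cells, each with both fractions, made 4 groups of 3 libraries labelled as biological replicates. No group without the fusion protein or without biotin was analysed here, and the total fraction is what the resin left behind, so a cortical-to-total ratio compares 2 parts of the same lysate.

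Fatty acid synthesis starts from citrate that leaves the mitochondria and is split by ATP citrate lyase (Acly) into acetyl-CoA. Acetyl-CoA carboxylase (Acaca) adds a carboxyl group to make malonyl-CoA, the committed step, and fatty acid synthase (Fasn) uses malonyl-CoA to build palmitate. Elongases such as Elovl6 and Elovl1 lengthen the chain, stearoyl-CoA desaturases (Scd1, Scd2) insert a double bond, and SREBP-1 (Srebf1) is the transcription factor best known for switching this set on. In the epidermis the products feed the lipids of the skin barrier.

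Depth ranged from 8980013 to 23457548 counts per library, and 13571 genes were tested. Keratinocyte markers were abundant in every library, with 9 of 9 tested and summed levels from 8420 to 9688 CPM (each count relative to its library's total, after a TMM correction) in unwounded total, 13127 to 13181 in unwounded cortical, 14918 to 17665 in wounded total and 18517 to 18884 in wounded cortical libraries. This sum thus moved with both the fraction and the wound, and its part in the results was not tested. Of the markers for lipid-making cells, Adipoq, Plin1, Cidec and Lep of adipocytes and Mc5r, Pparg and Plin5 of sebocytes were at 0 in all 12 libraries. The sebocyte list summed to 2.62 to 7.77 CPM and the adipocyte list to 1.58 to 11.8 CPM, highest in wounded total libraries. The sum of the immune list was higher in wounded cells, at 43.2 to 58.7 CPM in total and 32.9 to 38.6 CPM in cortical libraries against 20.9 to 24.9 and 17.8 to 20.9 CPM in unwounded ones. Only 1 of its 4 genes passed the filter. Lyz2 was at 0 in all groups and Ptprc in all but the wounded cortical one. In the unwounded cortical and wounded total groups Cd3e was at 0 as well, so the sum there was Cd68 alone. The part of this list in the wound results was not tested. Wounded total replicate 1 stood apart: 13117 genes were detected in it against 14393 to 16867 in the others, and 404 of 1021 genes (39.6%) with 10 to 20 counts expected from the other wounded total libraries had 0. Where leaving it out changed a call or moved a called value by over 1.5 times, the value without it is given as well.

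Acaca was the member with the widest range between groups. Its level was 39.4, 36.9 and 41.8 CPM in the unwounded total libraries and 477, 467 and 462 CPM in the unwounded cortical ones. In wounded cells it was 44.3, 40.4 and 53.3 CPM in the total and 236, 203 and 210 CPM in the cortical fraction. Cortical and total libraries were thus far apart in both conditions, and the wounded cortical libraries lay between the unwounded cortical and the total ones. The cortical-to-total fold was 11.9 in unwounded cells (log2 3.57, SE 0.12) and 4.71 in wounded cells (log2 2.23, SE 0.12). Among the 10386 genes averaging 50 or more counts, Acaca had the highest cortical-to-total ratio in unwounded cells and rank 2 in wounded cells.

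**Figure D1:**
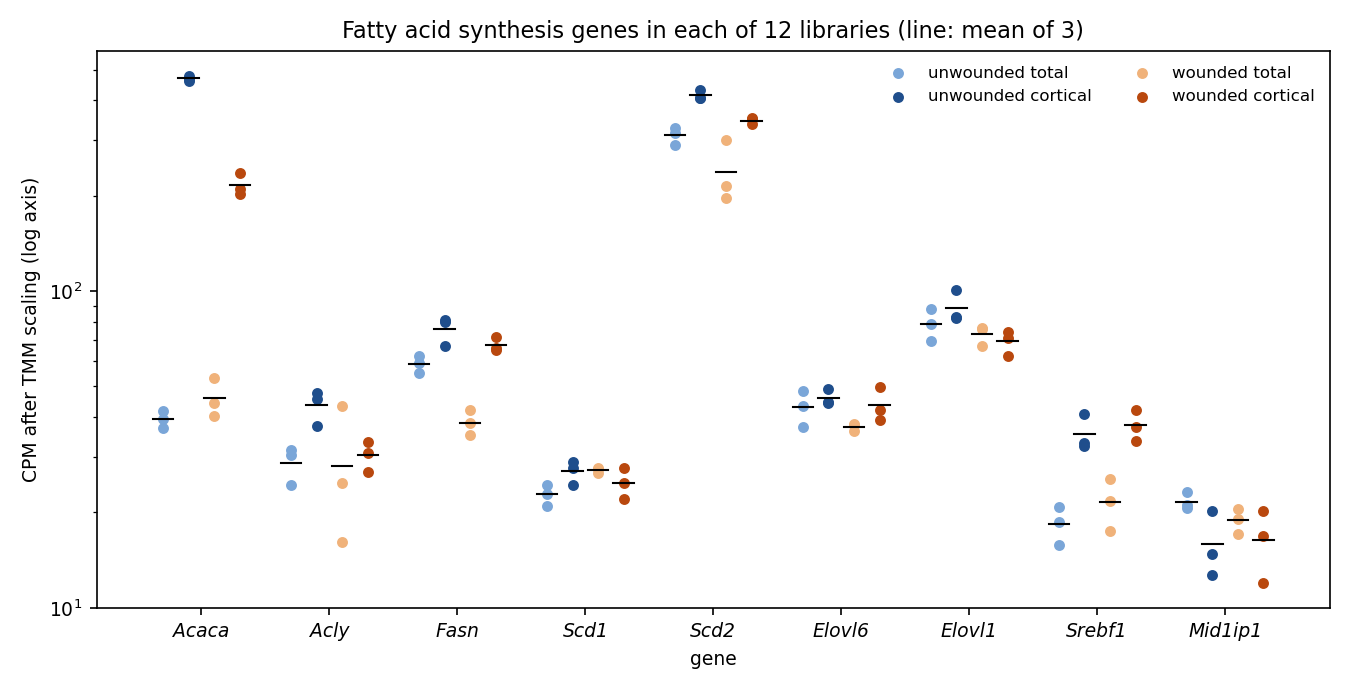
Level of each of the 9 genes in CPM on a log axis (y) by gene (x), with 1 point per library, coloured by group, and a line at the mean of 3. Acaca sits between 36.9 and 53.3 CPM in all 6 total libraries and between 203 and 477 CPM in the 6 cortical ones, while the other 8 genes move far less.

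Acetyl-CoA carboxylase is one of the few mammalian enzymes that carry biotin, bound to a lysine between 2 methionines, and the resin used here binds biotin. The coding sequence around that lysine is therefore shown for Acaca and for the other biotin carboxylases, with the codons for methionine, lysine and methionine in capitals. The sequences are 63 bases of the coding strand from the GENCODE M21 annotation (GRCm38), and each coding sequence had 1 such match in frame.
Acaca: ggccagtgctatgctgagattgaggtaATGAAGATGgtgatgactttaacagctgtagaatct
Acacb: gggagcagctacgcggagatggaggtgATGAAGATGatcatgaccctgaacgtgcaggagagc
Pc: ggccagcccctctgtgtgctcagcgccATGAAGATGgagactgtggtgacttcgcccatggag
Pcca: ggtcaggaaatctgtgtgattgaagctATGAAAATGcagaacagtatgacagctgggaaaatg
Mccc1: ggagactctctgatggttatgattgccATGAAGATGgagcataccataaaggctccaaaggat

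The capitals in Acaca lie at chr11:84260627-84260635 on the forward strand, in coding exon sequence. The lysine is codon 785 of 2345, so the site is in the first part of the reading frame. In its paralog Acacb it is codon 919 of 2448 (chr5:114207239-114207247, forward strand). In the mitochondrial carboxylases it lies near the end: codon 1145 of 1179 in Pc (chr19:4621178-4621186, forward), 690 of 724 in Pcca (chr14:122887083-122887091, forward) and 677 of 717 in Mccc1 (chr3:35960936-35960944, reverse). Of the 63 bases shown, 38 were identical to Acaca in Acacb, 36 in Pcca, 30 in Mccc1 and 28 in Pc.

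The other carboxylases had much smaller cortical-to-total differences. Pc, pyruvate carboxylase, was at 12.4, 12.8 and 15.4 CPM in unwounded total and 19.4, 27.8 and 27.8 CPM in unwounded cortical libraries, which did not overlap. Its log2 fold change was 0.88 (SE 0.21, edgeR adjusted p = 0.00889), and in wounded cells it was 0.56 (adjusted p = 0.0728, and 0.0268 with a replicate block). Pcca, the biotin subunit of propionyl-CoA carboxylase, differed by 0.40 in unwounded cells (adjusted p = 0.122) and 0.64 in wounded cells (adjusted p = 0.0149), where the total libraries held 15.1, 15.6 and 17.5 CPM and the cortical ones 26.2, 25.2 and 23.5 CPM. Mccc1, the biotin subunit of methylcrotonyl-CoA carboxylase, differed by 0.19 in unwounded cells (adjusted p = 0.732) and by 0.88 in wounded cells (adjusted p = 0.0256). Acacb had 0 to 8 counts per library, too few to test. Over the 7 tested genes of biotin enzymes (carboxylases, partner subunits, and the enzymes that attach and release biotin) the median log2 fold change was 0.40 in unwounded and 0.63 in wounded cells, with 1 and 2 of the 7 called higher, where 6.62% and 7.62% of all genes were. Whether the biotin of the carboxylase itself takes part in its cortical level was not tested.

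The other members had smaller cortical-to-total values than Acaca. In unwounded cells Acaca, Fasn, Scd2 and Srebf1, 4 of the 9, lay past the threshold and were higher in the cortical fraction, where 6.62% of all 13571 genes were called higher and 7.59% lower. These 4 lay past it in wounded cells too, where 7.62% of all genes were called higher and 8.03% lower. Without Acaca, the other 8 genes had a median log2 difference of 0.31 in unwounded cells and 0.17 in wounded cells, against 0.0023 and 0.042 over all genes. Their largest value was 0.94 (Srebf1) in unwounded and 0.81 (Fasn) in wounded cells, beside 3.57 and 2.23 for Acaca.

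In library ranges, the unwounded cortical and total libraries did not overlap for 5 members that were higher (Acaca, Acly, Fasn, Scd2 and Srebf1; 17.1% of all genes) and for 1 that was lower (Mid1ip1; 19.1% of all genes). In wounded cells they did not overlap for 5 higher members (Acaca, Fasn, Scd2, Elovl6 and Srebf1; 16.2% of all genes) and for 0 lower ones. Without wounded total replicate 1, Acly also lay past the threshold in both comparisons. Of all 14073 genes, 1415 were then called higher and 1736 lower in unwounded cells, and 1697 and 1778 in wounded cells. With all libraries these counts were 898 and 1030, and 1034 and 1090, of 13571.

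Fasn, which takes the malonyl-CoA made by Acaca, was at 62.2, 55.0 and 59.4 CPM in unwounded total and 81.3, 67.1 and 80.03 CPM in unwounded cortical libraries. In wounded cells it was at 38.3, 42.0 and 35.0 CPM in total and 65.0, 66.0 and 71.7 CPM in cortical libraries. The cortical libraries were higher in both conditions, by a log2 difference of 0.37 (SE 0.11) in unwounded and 0.81 (SE 0.11) in wounded cells. The unwounded value fell short of the threshold in 9 of 25 alternatives, among them the omission of any 1 of the 3 unwounded total libraries or of unwounded cortical replicate 1 or 3.

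Srebf1 was at 18.7, 15.7 and 20.8 CPM in unwounded total and 33.0, 32.4 and 40.8 CPM in unwounded cortical libraries. In wounded cells it was at 25.5, 21.7 and 17.5 CPM in total and 33.6, 42.1 and 37.3 CPM in cortical libraries. All cortical libraries were above all total ones. The log2 difference was 0.94 (SE 0.17) in unwounded and 0.80 (SE 0.16) in wounded cells. The gene overlaps Rai1 on the opposite strand, and the libraries were not strand-specific, so reads of the shared stretch cannot be told apart.

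Scd2 was the most abundant member for its length in all 4 groups. Its level was 316, 289 and 327 CPM in unwounded total, 407, 408 and 433 CPM in unwounded cortical, 300.5, 215 and 197 CPM in wounded total and 348, 337 and 351 CPM in wounded cortical libraries. The cortical libraries were the higher ones in each condition, with log2 differences of 0.42 (SE 0.13) and 0.54 (SE 0.13). They fell short of the threshold in 12 and 5 of 25 alternatives. In the unwounded comparison these included the omission of any 1 of the 6 unwounded or 3 wounded cortical libraries, and in the wounded one that of wounded total replicate 2 or 3. Scd1, its close paralog, differed by 0.24 and -0.13 and was not called. Reads shared by the Scd genes may be split between them by the counting, so their separate levels are uncertain; Scd3 had at most 17 counts in a library.

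The remaining members were not called in either condition. Acly, the enzyme that supplies acetyl-CoA, was at 30.4, 24.4 and 31.4 CPM in unwounded total and 37.4, 45.5 and 47.8 CPM in unwounded cortical libraries, a log2 difference of 0.59 (SE 0.24). Its wounded total libraries spread from 16.1 to 43.4 CPM, with the highest value in replicate 1, and the wounded log2 difference was 0.11, or 0.56 without that library. Elovl6, which extends palmitate to stearate, differed by 0.10 and 0.23. Elovl1, an elongase of very long saturated chains, differed by 0.17 and -0.08. Elovl1 overlaps Cdc20 on the opposite strand, which had 42491 counts over the 12 libraries against 16642 for Elovl1, so this value is uncertain. Mid1ip1, a small protein that promotes polymerisation of acetyl-CoA carboxylase, was the only member below 0 in both conditions, at -0.44 (SE 0.20) and -0.21 (SE 0.20).

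Gene length was set beside these ratios. Merged exons span 17074 bases in Acaca and 10947 in Fasn, and the coding lengths were 7035 and 7512 bases. Of 162 genes within 10% of the exon length of Acaca, the median unwounded cortical-to-total log2 difference was 0.32, against 0.0023 over all genes, and the highest 2.24. Acaca was chosen for its high ratio, so its place above all of them follows from the choice and nothing is read from it. In wounded cells the median was 0.46 and the highest 2.05. Around Fasn, 168 of 512 genes of like length were above it in unwounded cells and 52 of 512 in wounded cells. With a smooth trend on length removed from each library, Acaca remained at 3.30 and 1.82 and Srebf1 at 0.88 and 0.64, while Fasn went to 0.18 in unwounded cells, short of the threshold, and 0.50 in wounded cells. Scd2 went to 0.37 and 0.38, short of it in both, and Acly to 0.55 in unwounded and -0.054 in wounded cells.

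**Figure D2:**
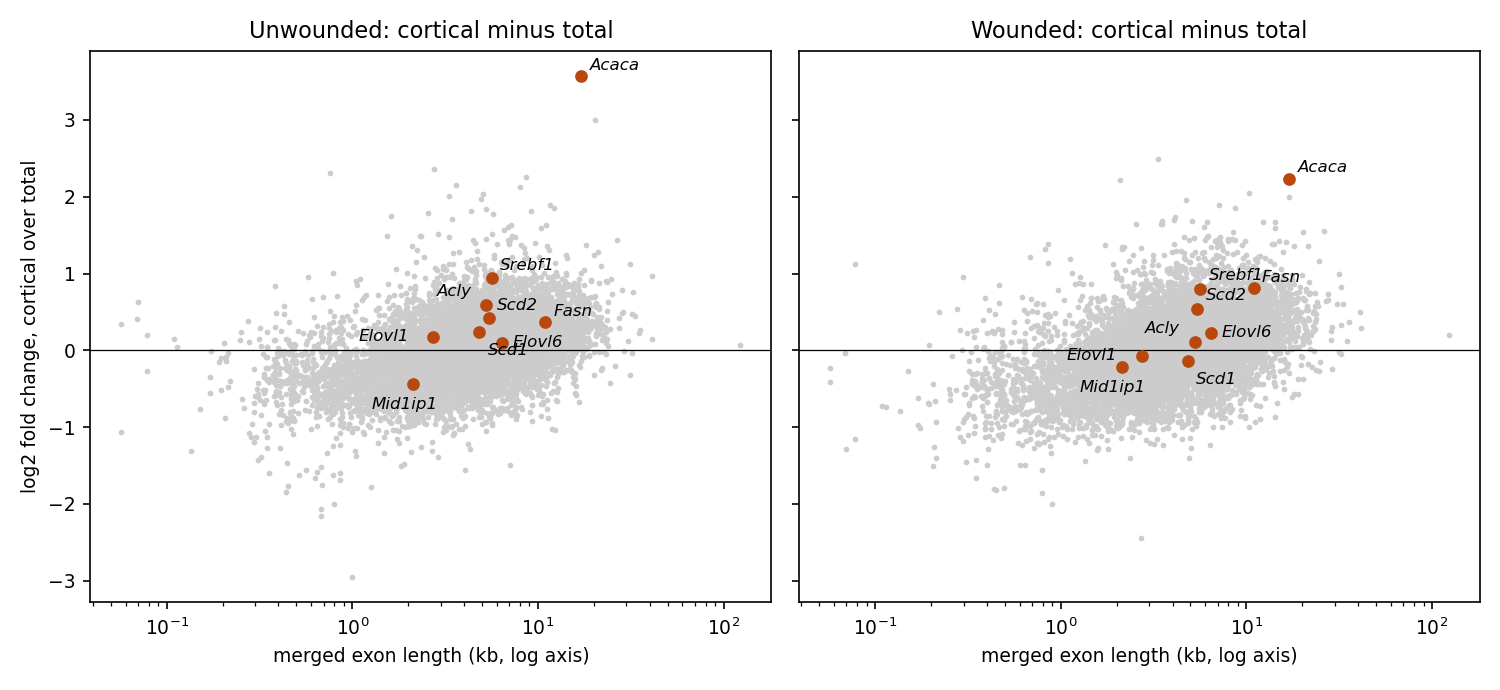
Log2 fold change of cortical over total (y) against merged exon length in kb on a log axis (x), for unwounded (left) and wounded (right) cells. Grey points are the 10386 genes averaging 50 or more counts and orange points the 9 members; Acaca stands at 3.57 and 2.23, and the other 8 members lie between -0.44 and 0.94.

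Per unit length, the order of the members changed between the fractions. In deposited FPKM (fragments scaled by gene length and library size), Acaca was the lowest of the 9 in the total fraction, at 2.26 in unwounded and 2.70 in wounded cells, below Srebf1 in the first and Fasn in the second without overlap. In the cortical fraction it took the third place, at 27.4 in unwounded and 12.5 in wounded cells, without overlap with its neighbours in that order. Acaca has the longest merged exons of the 9. In CPM it was not the lowest member of the total fraction, with means of 39.4 and 46.0 against 18.4 and 21.5 for Srebf1. Scd2 and Elovl1 held the first and second place in all 4 groups, at mean levels of 43.7 to 76.1 and 25.1 to 32.4 FPKM. Below them, Acly, Elovl6, Fasn, Srebf1, Scd1 and Mid1ip1 lay between 5.05 and 8.23 FPKM in the cortical groups, and each overlapped its neighbour in that order.

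The ratio of Acaca to Fasn, 2 consecutive steps of the pathway, shows this shift per library. In FPKM it was 0.406, 0.430 and 0.451 in unwounded total and 3.76, 4.46 and 3.70 in unwounded cortical libraries. In wounded cells it was 0.740, 0.616 and 0.976 in total and 2.33, 1.97 and 1.87 in cortical libraries. No 2 groups overlapped: in FPKM, Fasn was above Acaca in every total library and below it in every cortical one. The means were 0.429 ± 0.0225, 3.98 ± 0.424, 0.777 ± 0.183 and 2.06 ± 0.241 (SD, n = 3 each). FPKM divides by merged exon length, 17074 bases in Acaca and 10947 in Fasn, so which gene is higher depends on it. In CPM, Acaca was above Fasn in wounded total replicates 1 (44.3 against 38.3) and 3 (53.3 against 35.0).

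The wound response was not used to choose the genes and was tested. In the total fraction, Fasn fell after wounding by 0.61 on the log2 scale (SE 0.11, edgeR quasi-likelihood adjusted p = 0.00147), and all 3 wounded libraries were below all 3 unwounded ones. It was the only one of the 9 members called (1 lower, 0 higher), where 8.39% of all genes were called higher and 7.20% lower. Scd2 missed the threshold at -0.39 (SE 0.13, adjusted p = 0.0552). Acaca differed by 0.22 (SE 0.11, adjusted p = 0.206), and its groups overlapped. With the trend on gene length removed, Acaca was called higher, at 0.39 (edgeR adjusted p = 0.0141, and 0.0186 with a replicate block). By range, Scd1 did not overlap and was higher (14.5% of all genes), and Fasn and Mid1ip1 did not overlap and were lower (17.6% of all genes). For Scd1 the log2 difference was 0.26 (adjusted p = 0.217) and for Mid1ip1 -0.20 (adjusted p = 0.581).

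Without wounded total replicate 1, 3 members were lower after wounding in the total fraction. These were Fasn at -0.61 (adjusted p = 0.000529), Scd2 at -0.59 (adjusted p = 3.30e-05) and Acly at -0.49 (adjusted p = 0.0438). That library held the highest Scd2 and Acly levels of the wounded total group. Without it, 1887 of all 14073 genes tested were called higher and 1615 lower, against 1139 and 977 of 13571 with all libraries.

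In the cortical fraction, Acaca fell after wounding to 0.461-fold (log2 -1.12, SE 0.11, edgeR adjusted p = 6.27e-05), from 462 to 477 CPM down to 203 to 236 CPM. These libraries also enter the ratios for which Acaca was chosen, so this test is not independent of the choice. Acaca was the only member called (1 lower, 0 higher), where 1.60% of all genes were called higher and 0.884% lower. Acly at -0.52 (adjusted p = 0.290), Elovl1 at -0.35 (adjusted p = 0.127) and Scd2 at -0.27 (adjusted p = 0.305) had lower wounded libraries without overlap, as had Acaca, which makes 4 members where 11.5% of all genes were of that kind. Fasn was at -0.17 (adjusted p = 0.460), Srebf1 at 0.09 (adjusted p = 0.841) and Mid1ip1 at 0.03 (adjusted p = 0.971). Without wounded total replicate 1, which enters only through the shared fit, the 4 members without overlap were called, the weakest being Elovl1 (adjusted p = 0.0450). Over all genes, 770 of 14073 were then called higher and 506 lower, against 217 and 120 of 13571 with all libraries.

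**Figure D3:**
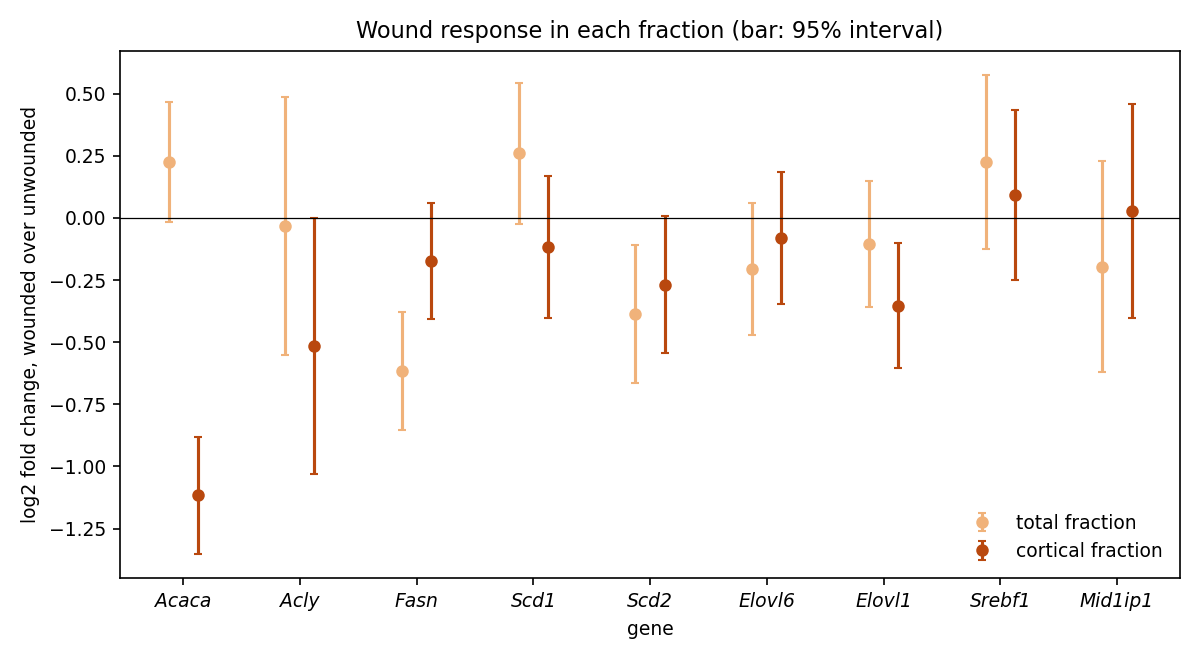
Log2 fold change of wounded over unwounded cells (y) for each gene (x) in the total and the cortical fraction, with bars for the 95% interval of the edgeR fit. Fasn is lower in the total fraction (-0.61) and Acaca in the cortical fraction (-1.12). Scd2 in the total and Elovl1 in the cortical fraction have intervals below 0 without an adjusted p under 0.05.

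The 2 wound responses of Acaca differed by -1.34 on the log2 scale (SE 0.16), given as a description because this difference is made of the ratios that chose the gene. Past the threshold were 0.0221% of all genes higher and 0.103% lower, and Acaca is the 1 member among them, from which nothing is read. For Fasn the difference was 0.44 (SE 0.16). Both comparisons of cortical with total RNA and the wound comparisons share libraries with it.

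Among 9713 protein-coding genes averaging 50 or more counts, the profiles nearest to that of Acaca over the 12 libraries belonged to Prune2, Bcor, Cep170b, Ppp1r9b, Atf6b and Ppp1r13l. Likeness was the root-mean-square difference of log2 CPM after subtracting each gene's mean, and it was 0.36 for Prune2 and 0.55 to 0.62 for the others. Prune2 was at 26.98 ± 3.28, 216 ± 13.5, 30.4 ± 6.09 and 88.7 ± 2.39 CPM in unwounded total and cortical and in wounded total and cortical libraries, in that order (SD, n = 3). None of these 6 is an enzyme of fatty acid synthesis. By the same measure Srebf1 ranked 106, Fasn 519, Scd2 678, Acly 1150, Elovl6 3001, Elovl1 3674, Scd1 3926 and Mid1ip1 8113, and the median over all candidates was 1.52. The measure uses the same libraries as the cortical-to-total ratios, and the order carries no test.

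**Figure D4:**
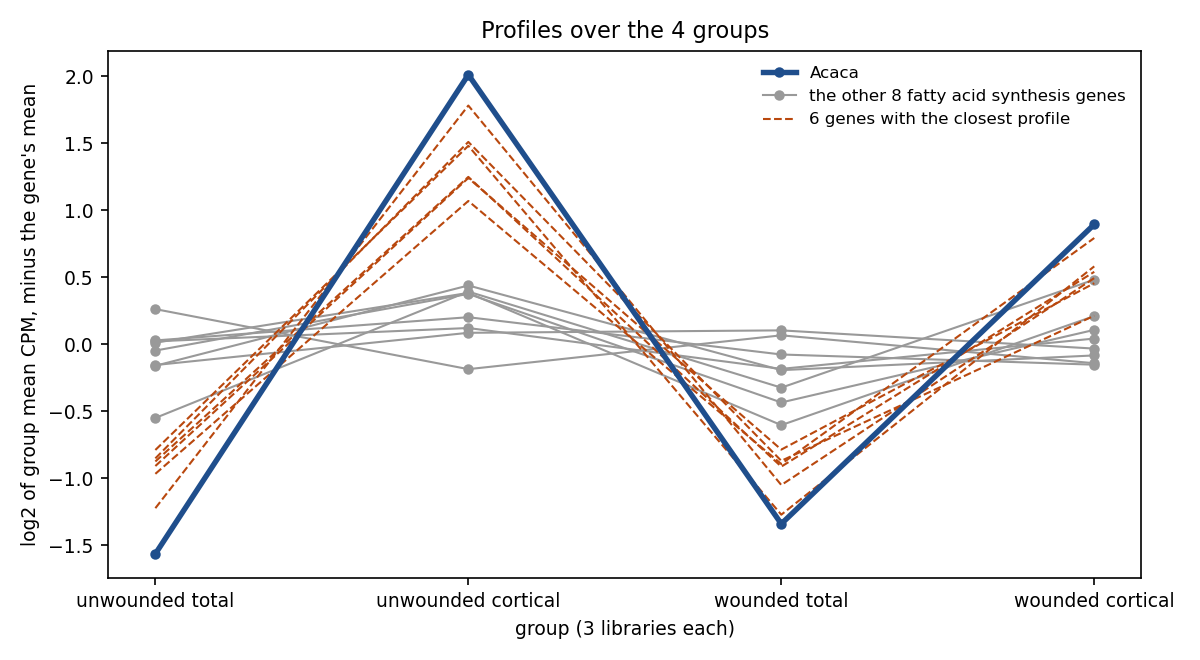
Log2 of the group mean CPM minus the gene's mean over the 4 groups (y) by group (x). Acaca (thick line) and the 6 genes nearest to it (dashed) peak in unwounded cortical libraries, and the other 8 members (grey) stay close to 0.

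The wider pathway was read from 9 lists with 114 further genes, of which 98 were tested. In the unwounded cortical fraction 10 were higher and 4 lower (median log2 0.22, against 0.0023 over all genes), and in the wounded one 5 were higher and 5 lower (median 0.086, against 0.042). After wounding, 20 were higher and 1 lower in the total fraction (median 0.19, against -0.026), and 2 were higher and 1 lower in the cortical fraction (median 0.14, against 0.015). The shares of all genes called are those given above. For the difference between the wound responses, edgeR called 0 of the 98 (3 at an unadjusted p under 0.05, 1 by DESeq2). These counts moved with single libraries: omitting 1 library left 5 to 24 calls between the unwounded and 1 to 20 between the wounded fractions, and 6 to 26 and 0 to 11 for the wound in the total and the cortical fraction. The most calls came without wounded total replicate 1 each time. Over all genes, too, more were called without that library than with all libraries. Without it, the 14, 10 and 3 genes called between the fractions and for the wound in the cortical fraction were all called again, and of the 21 for the wound in the total fraction 16 were called again, 5 were lost and 10 were added.

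Of the supply genes, which provide citrate, acetyl-CoA and NADPH, 0 of 10 were called by edgeR in unwounded cells (1 at an unadjusted p under 0.05, 1 by DESeq2), where 6.62% of all genes were called higher and 7.59% lower. In wounded cells 1 of the 10 was called, Mdh1, the cytosolic malate dehydrogenase, which was lower (log2 -0.29, adjusted p = 0.0463). In the total fraction 3 of the 10 rose after wounding. They were Pgd, an NADPH-making enzyme of the pentose phosphate pathway, by 0.34 (adjusted p = 0.0431, and 0.27 with 0.0737 without wounded total replicate 1), citrate synthase Cs by 0.31 (adjusted p = 0.0374) and the citrate carrier Slc25a1 by 0.28 (adjusted p = 0.0408). Their direction was opposite to that of Fasn in the same libraries.

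Of 9 tested genes that control acetyl-CoA carboxylase or its product, among them the AMP-activated kinase subunits and Cpt1a, the mitochondrial entry enzyme that malonyl-CoA inhibits, 0 were called by edgeR in any of the 4 pairwise comparisons. At an unadjusted p under 0.05 there were 2 after wounding in the total fraction and 0 in the other comparisons, and DESeq2 called 1 and 0. Acacb, Thrsp (a relative of Mid1ip1) and Prkaa2 had too few counts to test. Cpt1a was at 18.5, 17.9 and 15.3 CPM in unwounded total and 25.4, 21.3 and 23.0 CPM in wounded total libraries, without overlap (log2 0.43, adjusted p = 0.0965).

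A pair of desaturation genes lay opposite to Acaca. Fads2, the delta-6 desaturase, was lower in the cortical fraction, at 39.7, 28.8 and 28.5 CPM against 60.9, 60.0 and 56.8 CPM in unwounded cells (log2 -0.86, SE 0.14, adjusted p = 0.000993). Cyb5a, the cytochrome that passes electrons to desaturases, was lower too (log2 -0.59, adjusted p = 0.00517). Both were also lower in wounded cortical libraries, by -0.48 (adjusted p = 0.0281) and -0.47 (adjusted p = 0.0202), so 2 of 7 tested genes of this list were called, both lower, in each condition. In the total fraction 3 of the 7 rose after wounding: Cyb5r3 by 0.67 (adjusted p = 0.00146), Fads3 by 0.42 (adjusted p = 0.0136) and Fads1 by 0.34 (adjusted p = 0.0281).

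Of the 8 tested elongation genes, 0 were called between the fractions by edgeR in either condition, with 2 in unwounded and 0 in wounded cells at an unadjusted p under 0.05 and 1 and 0 by DESeq2. Tecr, the reductase of the last step of the cycle, rose after wounding in both fractions, by 0.75 in the total (adjusted p = 0.000434) and 0.48 in the cortical one (adjusted p = 0.0369). Hsd17b12, the ketoreductase of the cycle, fell in the cortical fraction from 68.6, 74.2 and 63.9 to 49.99, 48.7 and 46.6 CPM (log2 -0.51, adjusted p = 0.0203). In the total fraction Elovl4 (1.02, adjusted p = 0.0415) and the dehydratase Hacd2 (0.68, adjusted p = 0.0134) also rose, while Hacd3 fell by 0.43 (adjusted p = 0.0310).

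Regulators of lipogenesis were divided. Of 13 tested, Srebf2, the sterol-responsive relative of Srebf1, was higher in the unwounded cortical fraction by 0.31 (adjusted p = 0.0425), and so was the coactivator Ppargc1b by 0.92 (adjusted p = 0.0449). The liver X receptor Nr1h2 (-0.43, adjusted p = 0.0112) and Mlx, partner of the carbohydrate response factor (-0.51, adjusted p = 0.0354), were lower. In wounded cells only Nr1h2 was called (-0.34, adjusted p = 0.0356). After wounding Srebf2 rose by 0.31 in the total fraction (adjusted p = 0.0406, and 0.25 with 0.0634 without wounded total replicate 1), and 0 of the 13 were called by edgeR in the cortical one (2 at an unadjusted p under 0.05, 0 by DESeq2).

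In the acylceramide list and the activation and glycerolipid list, all genes called between the fractions were higher in the cortical one. Of all genes, 6.62% were called higher in unwounded and 7.62% in wounded cells. In unwounded cells 5 of 15 tested acylceramide genes were higher in the cortical fraction, led by the dihydroceramide desaturase Degs1 (0.72, adjusted p = 0.000287) and the glucosylceramide synthase Ugcg (0.69, adjusted p = 0.0271). Sptlc3 (0.47, adjusted p = 0.0261) and Sptlc2 (0.46, adjusted p = 0.0175), subunits of serine palmitoyltransferase, followed, and in wounded cells Sptlc2 alone was called (0.48, adjusted p = 0.0139). Without wounded total replicate 1, Sptlc1 (0.71, adjusted p = 0.0358), Abca12 (0.57, adjusted p = 0.0210) and Cers3 (0.35, adjusted p = 0.0389) were called higher in wounded cells too. Among 17 acyl-CoA synthetase and glycerolipid genes, Acsl3 was higher in both conditions (0.73, adjusted p = 0.0127, and 0.70, adjusted p = 0.0153), Acsbg1 in unwounded cells (0.57, adjusted p = 0.0314) and Lpin1 in wounded cells (1.09, adjusted p = 0.0152).

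After wounding, some acylceramide and activation genes rose in the total fraction while Fasn fell. Degs1 went from 64.9, 62.5 and 69.9 CPM to 135.7, 130.0 and 133.0 CPM (log2 1.01, SE 0.10, adjusted p = 8.77e-06). Acsbg1, an acyl-CoA synthetase, rose by 1.27 (adjusted p = 0.000144), and Alox12b, a lipoxygenase of barrier ceramides, by 1.60 (adjusted p = 0.0462). Dgat1, which makes triglyceride, rose by 0.71 (adjusted p = 0.0394) and Lpin3 by 0.51 (adjusted p = 0.0445), which without wounded total replicate 1 was 0.30 (adjusted p = 0.153). In total 5 of 15 acylceramide and 3 of 17 activation genes rose and 0 fell. Of all genes, 8.39% were called higher and 7.20% lower. With a replicate block, Alox12b (adjusted p = 0.0826), Elovl4 (0.0529) and Dgat1 (0.0530) were not called. In the cortical fraction 0 of either list were called by edgeR (5 and 4 at an unadjusted p under 0.05, 2 and 0 by DESeq2). Without wounded total replicate 1 the calls there included Acsbg1 (0.55, adjusted p = 0.0186) and Degs1 (0.37, adjusted p = 0.0132), both higher.

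Of 14 tested genes of beta oxidation, the breakdown pathway, 12 had a higher mean in the unwounded cortical fraction, with a median log2 difference of 0.24 against 0.0023 over all genes. Libraries did not overlap for 5 of them, all higher (17.1% of all genes), and edgeR called 0 (4 at an unadjusted p under 0.05, 1 by DESeq2). In wounded cells the median was 0.074 and Etfb was lower (-0.68, adjusted p = 0.0256). After wounding, Hadha (0.61, adjusted p = 0.0240) and Acadl (0.55, adjusted p = 0.000983) rose in the total fraction, and Acads (0.51, adjusted p = 0.0458) in the cortical one. Without wounded total replicate 1, Hadha was at 0.32 (adjusted p = 0.0704). The propionyl-CoA carboxylase subunit Pccb rose in the total fraction by 0.75 (adjusted p = 0.0288), and was at 0.54 (adjusted p = 0.0755) without that library.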

How the data were processed

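The authors deposited 1 table of raw fragment counts per gene and 1 of FPKM values, with 3 libraries for each of 4 groups. The deposited counts are not normalized, and the deposited FPKM divide each count by gene length and by a library total. HISAT2, CASAVA and the mm10 build are named in the submitters' processing notes; the counting tool was not given in the sources used here. Libraries were poly-A selected and not strand-specific, per the labels' protocols. Every column with values per sample was used (0 left out).

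The edgeR 4.0.16 quasi-likelihood fit (R 4.3.3, TMM factors, filterByExpr) took all 12 libraries with 4 group means, and each contrast was tested two-sided with Benjamini-Hochberg adjustment over 13571 genes at 0.05. Alternatives used limma 3.58.1, DESeq2 1.42.0, other scalings, filters, a length trend and the omission of each library. Scripts were tested on simulated data. Figures were drawn with matplotlib 3.10.9 in python 3.11.15. The members, lists and rules were chosen with earlier results of these data known. Named genes were the members, the biotin carboxylases, the 6 profiles nearest to Acaca, and up to 4 called genes of each list with the largest change per comparison; Cpt1a and Thrsp were added after their values were seen. Pc is listed as Pcx in the file and was matched by its RefSeq synonym. Libraries of the same group differed by more than sampling noise in every pair. One gene that the rule would name is not reported here.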

Additional observations from a re-analysis of the deposited data

Results flagged for a closer look

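The cortical-to-total log2 difference of Acaca was 3.57 in unwounded and 2.23 in wounded cells, and the change between the conditions was -1.34 (SE 0.16). It stands here because this difference lies past the edgeR threshold, but it is made of the ratios for which the gene was chosen, so the threshold supports nothing. Over 24 alternatives the value ran from -1.49 to -1.24. All 3 wounded cortical libraries were below all 3 unwounded cortical ones, while the total libraries overlapped between conditions. These values are a description.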

How the results depend on the processing

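The fall of Fasn in the total and of Acaca in the cortical fraction kept their direction and call in all 25 alternatives. Correlations of same-numbered deviations were -0.031 to 0.0090 between the fractions and between the cortical groups. Between the total groups they were 0.150, 0.219 and -0.014 for replicates 1, 2 and 3. With the replicate block the members called stayed at 4, 4, 1, 1 and 1. The order is unwounded and wounded cortical against total, wound in total and in cortical fraction, and the difference between wound responses. List genes called were 11, 10, 14, 2 and 0 with the block, against 14, 10, 21, 3 and 0 without it. The block lost the calls of Srebf2, Cers3 and Ppargc1b in the unwounded and of Mdh1 in the wounded fractions, of Cs, Slc25a1, Srebf2, Pgd, Dgat1, Elovl4 and Alox12b for the wound in the total and of Acads in the cortical fraction. It added a call of Pc, higher in the wounded cortical fraction (edgeR adjusted p = 0.0268). Numbering these comparisons 1 to 5, members called were 2 with the length trend removed, with and without the block, in comparison 1. In comparison 3 they were 2 with DESeq2 or without the filter and 3 with voom. They were also 2 with the length trend removed, with or without the block, the added member being Acaca, called higher. In comparison 4 they were 2 with voom or without the filter and 4 with only the groups compared. Leaving out 1 library gave 2 to 5, 1 to 3 and 1 to 4 called members in comparisons 1, 3 and 4; the highest followed the omission of wounded total replicate 1. In comparison 1 the lowest followed that of any unwounded total library or unwounded cortical replicate 1 or 3, and in comparisons 3 and 4 every other omission gave 1, as with all libraries.

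List genes called were 23 and 23 with library size alone, 32 and 29 with voom and 23 and 3 with only the groups compared in comparisons 1 and 2, and 4 (3 with the block) with the length trend removed in comparison 2. In comparison 3 they were 7, 39 and 9 with library size alone, voom and only the groups compared. In comparison 4 they were 1 with library size alone or FPKM with either pseudocount, 6 with DESeq2 or a mean of at least 50 counts, 14 with voom and 13 with only the groups compared. In comparison 5 they were 5 with voom and 1 with DESeq2, without the filter or with the length trend removed (with or without the block). Leaving out 1 library gave 5 to 24, 1 to 20, 6 to 26, 0 to 11 and 0 to 3, with the most calls without wounded total replicate 1 in all 5. Counts fell by over 1.5 times without unwounded total replicate 1 or 2 or any unwounded cortical library in comparison 1, without wounded total replicate 2 or any wounded cortical library in comparison 2, and without any unwounded total library or wounded total replicate 2 or 3 in comparison 3. In comparison 4 they fell to 0 or 1 without any cortical library, unwounded total replicate 1 or 2 or wounded total replicate 2. The cause of these moves was not tested.

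Direction turned for these values, none of which was past the threshold after the turn. Acly between wounded fractions was -0.054 with the length trend removed (-0.014 with the block) and -0.17 to 0.56 without 1 library. After wounding in the total fraction it was 0.11 (0.061 with the block) and -0.49 to 0.24, the 0.56 and -0.49 being past the threshold and without wounded total replicate 1. Scd1 and Elovl1 between wounded fractions were 0.080 and 0.13 with library size alone. Mid1ip1 after wounding in the cortical fraction was -0.0048 with upper quartile scaling, -0.021 with library size alone, -0.14 with voom and -0.15 to 0.25 without 1 library. The differences between wound responses ran from -0.020 to 0.33 for Scd2 and from -0.28 to 0.0025 for Srebf1 without 1 library.

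Library size alone moved the median of all genes to 0.19 and 0.25 between the fractions, and to -0.10 after wounding in the total fraction. The split of higher to lower calls over all genes moved from 898 to 1030 to 1582 to 469 in comparison 1. In comparison 2 it moved from 1034 to 1090 to 2203 to 520, with 365 to 1094 with the length trend removed and 624 to 1023 or 618 to 994 in FPKM. In comparison 3 it moved from 1139 to 977 to 708 to 1104, or 1909 to 664 with the length trend removed. In comparison 4 it moved from 217 to 120 to 108 to 91, or 394 to 342 with DESeq2. Acacb, Thrsp and Prkaa2 did not pass the filter on low counts, and Prkaa2 was at 0 in all 12 libraries.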

Other observations

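Promoter windows from RefSeq (250 bases before to 50 after a gene's start, GRCm38.p6) were found for 7 of the 9 members, 10 windows in all. They follow RefSeq starts: the Acaca window, chr11:84195188-84195487, and the Mid1ip1 window, chrX:10717115-10717414, lie inside the gene spans given above, not at their first bases. The sterol regulatory element TCACNCCAC was in 0 of the 10 on either strand (1.24% of 32851 windows) and the E-box CACGTG in 0 (7.15%). The NF-Y box CCAAT was in 5 (37.4%) and the Sp1 box GGGCGG in 6 (35.7%). Matches of different motifs were counted separately, overlapping ones included. A match is a string of letters, not a site.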
